A study of Mus musculus with 5 samples.

Results

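The 10 genes described here control entry into the cell cycle in G1: the transcription factor gene Myc, the D cyclin genes Ccnd1, Ccnd2 and Ccnd3, their kinase partners Cdk4 and Cdk6, and the CDK inhibitor genes Cdkn1a, Cdkn1b, Cdkn2c and Cdkn2d. Their probes were found by matching the RefSeq transcript accession of every non-control probe to the gene symbols, without regard to signal. This gave 14 probes for the 10 genes, out of 20022 genes with a named probe. Of the 10 genes, 7 (10 probes) were well above background on at least 2 arrays and were tested among 11996 genes. Expression was measured on 1-colour Agilent arrays in thymic natural killer T (NKT) cells, which are T cells that recognise lipids on CD1d. The IL15ko group (2 arrays) carried the genotype IL15-/- and the wild-type group (3 arrays) carried wt alleles, both on the C57BL/6 background and without treatment. Each array held RNA of CD3e+ CD1d-tetramer+ cells sorted from 10 pooled thymi, and the labels used here give neither the age nor the sex of the mice. The labels do not say that the arrays of a group came from separate pools, and p-values therefore reflect no more than array-to-array spread, which may be technical.

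D cyclins bind and activate CDK4 and CDK6, and these kinases phosphorylate the retinoblastoma protein and its relatives, which frees E2F factors to switch on replication genes. INK4 proteins, such as the products of Cdkn2c (p18) and Cdkn2d (p19), bind CDK4 and CDK6, whereas CIP/KIP proteins, such as the products of Cdkn1a (p21) and Cdkn1b (p27), act mainly on cyclin E and cyclin A complexes of CDK2. Myc drives growth and opposes these inhibitors, and cytokines of the IL-2 and IL-15 family are known to raise Myc and D cyclins in T cells through STAT5 and PI3 kinase. In the thymus, NKT precursors divide intensely after selection and need Myc to do so, then mature into NKT1, NKT2 and NKT17 subsets that divide less.

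The T and NKT markers were present: all 8 measured ones, among them Cd3e and Zbtb16, were well above background on all 5 arrays. Rag1, Rag2, Ptcra, Cd8a and Cd8b1 of double-positive thymocytes, and Ncr1 of NK cells, reached no more than background throughout. Some markers of other cells were present: Itgam, Cst3 and Csf1r of the 7 measured myeloid markers and Cd79b of the 6 B-cell markers were well above background on every array, H2-Aa on wild-type 2 alone, while Lyz2, Adgre1 and Pax5 were so on 0 of 5. The summed myeloid signal was 6.12 and 12.2 in IL15ko and 5.54 to 7.50 in wild-type, in units of the 75th percentile. In this sum Itgam weighed most, at 2.137 and 3.391 on the log2 scale in IL15ko and 1.945, 2.350 and 1.883 in wild-type. Its other probes were well above background on 1 and 4 of the 5 arrays. The summed signal of B-cell markers was 0.0889 and 0.108 in IL15ko and 0.0515 to 0.116 in wild-type. Csf1r read -2.62 and -3.82 in IL15ko, against -1.14, -0.33 and -1.34 in wild-type, on its brightest probe (limma adjusted p = 0.0509). Its other probes, well above background on every array too, had log2 differences of -0.81 and 0.275, so its direction is uncertain. The part of myeloid and B cells in the results was not tested. The arrays differed in brightness. Between 33.9% (IL15ko 2) and 49.6% (wild-type 3) of 55681 probes were well above background, and the 75th percentile used for scaling was lowest on IL15ko 2 and highest on wild-type 3. Wild-type 1 and 2 were the closest pair, their log2 signals differing by a robust SD of 0.155, against 0.364 to 0.393 for the other wild-type pairs and 0.386 for the IL15ko pair. On none of the arrays was the Il15 probe well above background, so it checks no label. Xist was well above background on both IL15ko arrays and on none of the wild-type arrays. Eif2s3y, a Y-linked gene, was lower in IL15ko (log2 difference -1.98, limma adjusted p = 0.0061). It was still well above background on both IL15ko arrays, at -2.411 and -2.245. Genotype and the sex makeup of the pooled mice therefore cannot be told apart. In bulk RNA, fewer cells of a type and less RNA per cell cannot be told apart either. All 5 arrays lay on 1 slide with 1 scan time.

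In total 1 of the 7 tested members, Ccnd3, passed limma's test at a Benjamini-Hochberg adjusted p under 0.05, and it was lower in IL15ko. Over all 11996 genes 7.33% were called, 3.75% higher and 3.58% lower, so that 1 of 7 is not a result about the members as a group. The arrays of the 2 groups did not overlap for 4 members (Ccnd2, Ccnd3 and Cdkn1b lower, Cdkn2c higher in IL15ko), against 47.2% of all genes tested (25.1% higher and 22.1% lower in IL15ko). An unadjusted p under 0.05 was reached by 4 of the 7 members and by 27.5% of all genes. The median log2 difference (IL15ko minus wild-type) of the 7 members was -0.06, beside 0.02 for all genes tested. Unless given as a sum, signals below are log2 of the processed signal over the array's 75th percentile. Levels are compared between arrays for 1 probe. Exceptions are linear sums over a marker list, in which bright probes weigh most, and members set against Myc. Both are compared between arrays.

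**Figure D1:**
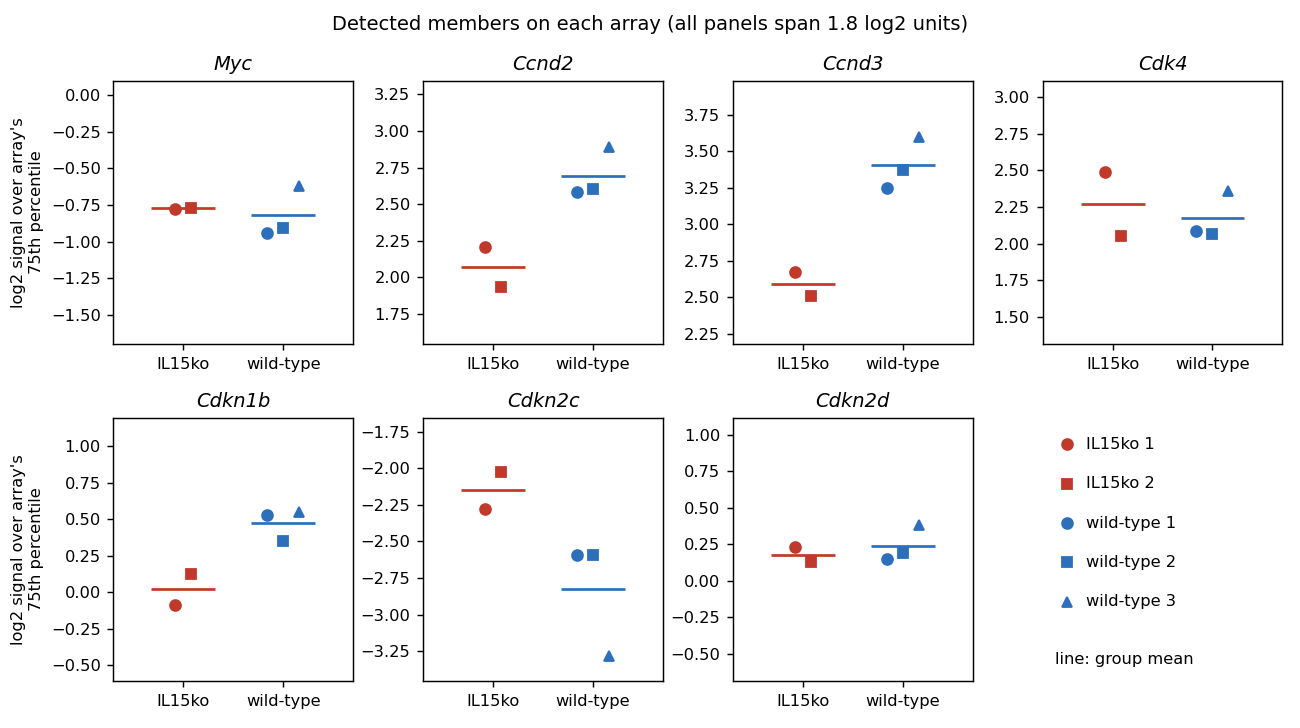
Log2 signal over the array's 75th percentile (y axis) of the 7 detected members on the 2 IL15ko arrays (red) and the 3 wild-type arrays (blue); points are arrays and lines are group means. Ccnd2, Ccnd3 and Cdkn1b lie lower and Cdkn2c higher on both IL15ko arrays, while Myc, Cdk4 and Cdkn2d overlap between the groups.

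Myc was expressed at much the same level with and without IL-15. Its signal was -0.78 and -0.77 on the IL15ko arrays, against -0.94, -0.90 and -0.62 on the wild-type arrays. Both IL15ko values lay inside the wild-type range. The log2 difference was 0.05 ± 0.15 (SE), with a 95% confidence interval of -0.34 to 0.43 and a limma adjusted p of 0.857. A change of Myc RNA past 1.35-fold upward lies outside this interval. The probe was printed as 2 spots on each array, and these differed by an SD of 0.02 to 0.06 on the log2 scale, less than the SD of 0.17 between wild-type arrays.

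Ccnd3 had the smallest p and the largest log2 difference of the 7 tested members. Ccnd3, the D cyclin that thymocytes need to expand after pre-TCR signalling, read 2.67 and 2.51 on the IL15ko arrays, against 3.25, 3.37 and 3.60 on the wild-type arrays. The groups were separated by more than the range within either of them. Ccnd3 fell by 0.82 ± 0.16 on the log2 scale (1.76-fold, 95% confidence interval 1.33 to 2.33, limma adjusted p = 0.0468), and it ranked 826th of 11996 genes by p. The call is close to the threshold. It was kept in 3 of 17 other processing choices and lost in 14, with adjusted p between 0.00904 and 0.205 and log2 differences between -0.90 and -0.69, so that the direction was the same in all 17. Leaving out any single array ended the call (adjusted p of 0.0835 without IL15ko 1, 0.177 without IL15ko 2, 0.128 without wild-type 1, 0.141 without wild-type 2 and 0.0565 without wild-type 3).

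The other probe for Ccnd3 (accession of another transcript variant) gave 1.37 and 1.37 on the IL15ko arrays, against 1.76, 1.94 and 2.11 on the wild-type arrays. Its groups did not overlap either. In a fit over all 15580 named probes above background, of which 6.21% were called, its log2 difference was -0.57 ± 0.16 (1.48-fold, limma adjusted p = 0.100), and that of the brighter Ccnd3 probe had an adjusted p of 0.0532. Both probes thus read lower in IL15ko, with log2 differences of unlike size, and no member probe was called in that fit.

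Ccnd3 has 2 annotated start sites in the RefSeq promoter table (GRCm38.p6), shown because Ccnd3 is the called member. Capitals mark the FoxO core TGTTTAC and the GC box GGGCGG, each read on both strands.
Ccnd3 start 1, chr17:47504801-47505100, + strand: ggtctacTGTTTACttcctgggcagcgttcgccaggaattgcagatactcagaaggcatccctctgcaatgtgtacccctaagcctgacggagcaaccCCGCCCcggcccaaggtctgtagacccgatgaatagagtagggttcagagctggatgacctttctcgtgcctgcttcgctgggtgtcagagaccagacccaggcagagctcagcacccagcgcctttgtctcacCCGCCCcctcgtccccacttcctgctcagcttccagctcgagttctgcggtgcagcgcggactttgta
Ccnd3 start 2, chr17:47593217-47593516, + strand: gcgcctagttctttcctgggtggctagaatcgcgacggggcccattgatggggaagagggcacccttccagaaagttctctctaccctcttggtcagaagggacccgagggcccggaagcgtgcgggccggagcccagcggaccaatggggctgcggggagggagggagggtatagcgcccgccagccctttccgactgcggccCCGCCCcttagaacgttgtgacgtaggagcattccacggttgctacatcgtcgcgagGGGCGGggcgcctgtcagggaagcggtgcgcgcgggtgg

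The first window held 1 FoxO core, at position -243 from the start site, and 2 GC boxes. The second held 2 GC boxes, at positions -46 and 12, and no FoxO core. Neither held the Myc/Max E-box CACGTG or the STAT motif TTCNNNGAA. The marked motifs do not overlap one another. Of all 32851 windows of the same length in the table, 3.65% held the FoxO core, 35.7% the GC box, 7.15% the E-box and 8.3% the STAT motif. These are matches of letters, not binding sites.

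Ccnd2, a D cyclin gene that STAT5 activates in lymphocytes, read 2.205 and 1.931 on the IL15ko arrays, against 2.58, 2.60 and 2.89 on the wild-type arrays. Every IL15ko value lay below every wild-type value. The log2 difference was -0.62 ± 0.17 (1.54-fold lower, 95% confidence interval 1.15 to 2.07), but the limma adjusted p of 0.092 missed the threshold. It was between -0.76 and -0.49 in 17 other processing choices, of which 1, a trended and robust variance prior, called it (adjusted p = 0.0295). For Ccnd1, the D cyclin gene of most non-lymphoid cells, no array had a signal well above background, with signals of -8.81 and -7.27 in IL15ko and of -8.49, -8.51 and -9.54 in wild-type. The lowest signals of any probe above background were -6.48 and -4.92 on the IL15ko arrays and -6.17, -6.17 and -7.22 on the wild-type arrays, so no difference in Ccnd1 could be measured.

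**Figure D2:**
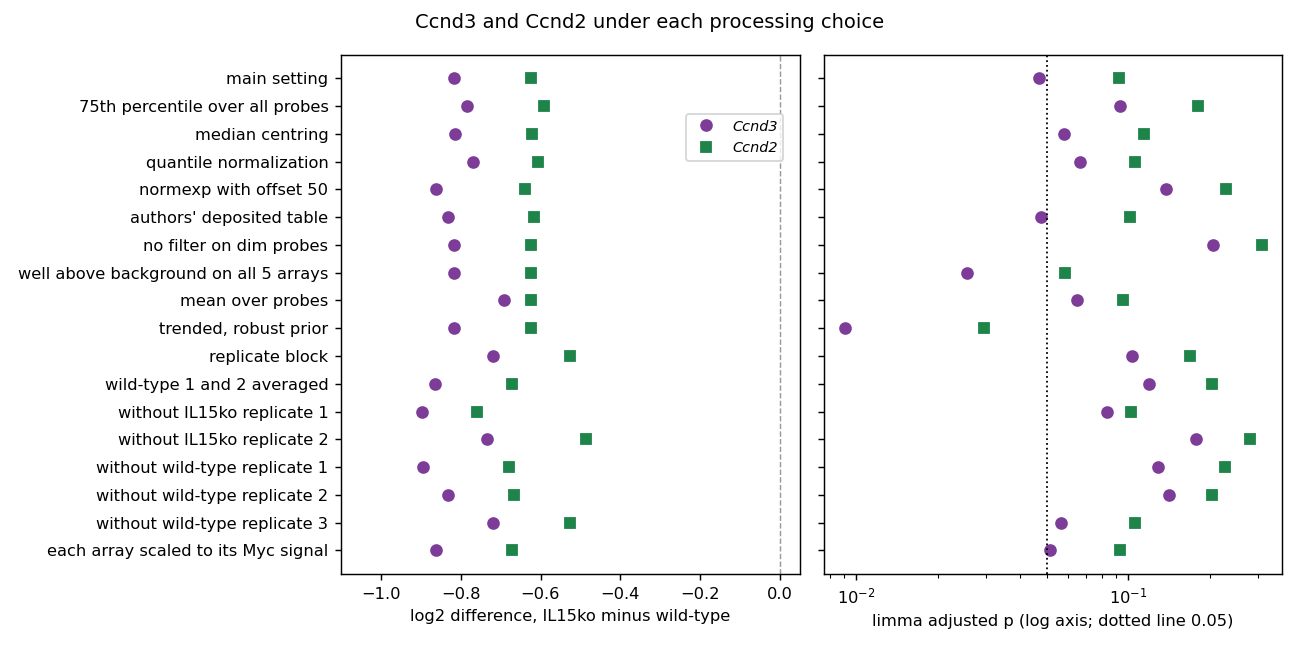
Log2 difference, IL15ko minus wild-type (left), and limma adjusted p on a log axis (right) of Ccnd3 (circles) and Ccnd2 (squares) in the main setting and 17 other processing choices. All differences lie below 0, whereas adjusted p crosses 0.05 (dotted line) in both directions.

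The kinase gene Cdk4 did not pass the test on any of its 3 probes. The brightest probe read 2.49 and 2.05 in IL15ko, against 2.09, 2.07 and 2.36 in wild-type. IL15ko 1 was the highest of all 5 arrays and IL15ko 2 the lowest. The log2 difference was 0.10 ± 0.19 (95% confidence interval -0.39 to 0.59, limma adjusted p = 0.758), and it was -0.12 without IL15ko 1. A second probe read 1.35 and 1.25 in IL15ko, against 0.85, 0.87 and 0.98 in wild-type, with no overlap. Its log2 difference of 0.40 ± 0.13 had a limma adjusted p of 0.135 over all probes. The third had a log2 difference of 0.17 ± 0.22 (adjusted p = 0.655) with overlapping groups. Cdk6, the kinase of the same pair, was nowhere well above background, at -7.42 and -7.01 in IL15ko and -7.60, -7.72 and -7.07 in wild-type. With 1 probe, this does not show that Cdk6 RNA was absent.

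Cdk4 is a textbook target of Myc, and its promoter window is shown because neither gene passed the test. Capitals mark the E-box CACGTG, which reads the same on both strands.
Cdk4, GRCm38.p6, chr10:127063285-127063584, + strand: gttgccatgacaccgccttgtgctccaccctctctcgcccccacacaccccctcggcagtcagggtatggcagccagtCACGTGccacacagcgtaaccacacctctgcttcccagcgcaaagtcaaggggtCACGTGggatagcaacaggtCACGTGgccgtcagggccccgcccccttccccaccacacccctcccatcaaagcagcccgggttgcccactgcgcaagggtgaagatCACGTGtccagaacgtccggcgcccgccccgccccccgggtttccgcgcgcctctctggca

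The window held 4 E-boxes, at positions -172, -118, -98 and -11 from the start site. Of the 32851 windows listed there, 8 held 4 or more. Among the members matched in the promoter table (7 of 10; Myc, Ccnd1 and Ccnd2 were not), Cdk6 and the Cdkn2c start at chr4:109665323-109665622 (- strand) held 1 E-box each. No window of a matched member held the STAT motif, which says only that these letters are not in these windows.

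The CIP/KIP inhibitor gene Cdkn1b, whose protein p27 holds resting lymphocytes out of S phase, read -0.09 and 0.13 in IL15ko, against 0.53, 0.35 and 0.55 in wild-type. Both IL15ko values were below all wild-type values. The log2 difference was -0.46 ± 0.14 (1.37-fold lower, 95% confidence interval 1.07 to 1.77) with a limma adjusted p of 0.12. It lay between -0.56 and -0.35 in 17 other processing choices, of which 0 called it (smallest adjusted p = 0.0508), while its unadjusted p in the main setting was 0.0227. Neither of the 2 probes for Cdkn1a, the p53-induced inhibitor gene, was well above background in either group. Its main probe, printed as 10 spots, read -7.21 and -5.56 in IL15ko, against -7.908, -7.775 and -7.880 in wild-type. Its spots varied by an SD of 0.41 to 0.68 on the log2 scale within an array, and the dim array IL15ko 2 had the highest value of this probe, as it did for Ccnd1 and Cdk6. The second probe was highest on wild-type 2, at -8.12 and -7.19 in IL15ko and -6.74, -6.16 and -8.21 in wild-type.

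The INK4 inhibitor gene Cdkn2c read -2.275 and -2.023 in IL15ko, against -2.60, -2.59 and -3.29 in wild-type. Both IL15ko values were above all wild-type values, and wild-type 3 stood below the other wild-type arrays. The log2 difference was 0.68 ± 0.26 (1.597-fold higher, 95% confidence interval 1.01 to 2.53), with a limma adjusted p of 0.178. It was 0.44 without wild-type 3. Cdkn2d, the other INK4 gene measured, read 0.23 and 0.13 in IL15ko, against 0.15, 0.19 and 0.38 in wild-type. These overlap, and its log2 difference was -0.06 ± 0.14 (95% confidence interval -0.41 to 0.29, limma adjusted p = 0.794).

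**Figure D3:**
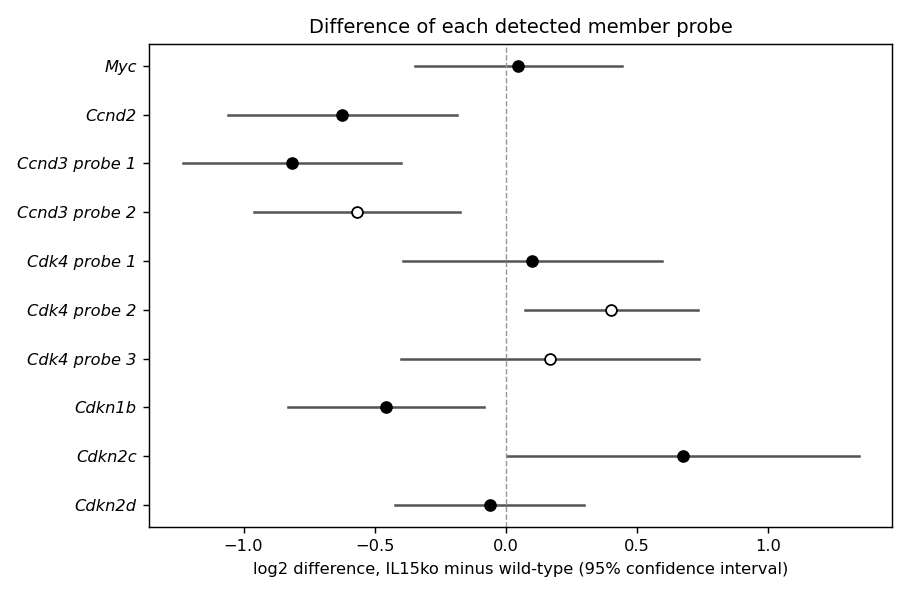
Log2 difference, IL15ko minus wild-type (x axis), with its 95% confidence interval for the 10 detected member probes, from the fit over all named probes. Filled circles are the probe that represents the gene and open circles its other probes. The intervals of both Ccnd3 probes, Ccnd2 and Cdkn1b lie below 0, those of the second Cdk4 probe and of Cdkn2c above 0, before adjustment for multiple tests.

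Among the 3 wild-type arrays, wild-type 3 had the highest signal for 6 of the 7 members and the lowest for the seventh, Cdkn2c, where it was highest for 42% and lowest for 42.1% of all genes tested. Members were therefore also set against Myc within each array, a choice made after these values were seen. Ccnd2 minus Myc was 2.98 and 2.70 log2 units in IL15ko, against 3.52, 3.51 and 3.51 in wild-type, where its SD was 0.01. Ccnd3 minus Myc was 3.45 and 3.28 in IL15ko, against 4.19, 4.28 and 4.22 in wild-type. The wild-type arrays thus lay closer together for both cyclins than on the common scale, and both IL15ko arrays were below them. Myc was itself highest on wild-type 3, as both cyclins were, so this narrowing was in part fixed by the choice. The wild-type SD grew from 0.108 to 0.156 for Cdkn1b and from 0.401 to 0.575 for Cdkn2c. Both IL15ko arrays still lay below all wild-type arrays for Cdkn1b and above them for Cdkn2c. Cdk4 minus Myc was 3.27 and 2.82 in IL15ko and 3.03, 2.97 and 2.98 in wild-type, with the IL15ko arrays on either side. When all genes were scaled to Myc in this way, the difference of Ccnd3 was -0.86 (limma adjusted p = 0.0516) and that of Ccnd2 -0.67 (adjusted p = 0.0928). Neither cyclin passed the threshold on this scale.

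**Figure D4:**
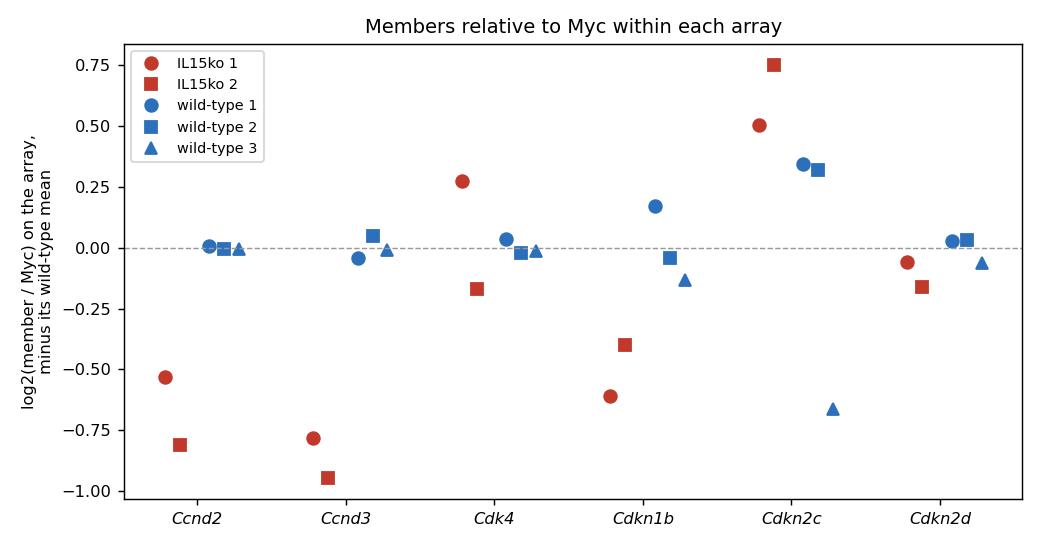
Log2 of each member's signal over that of Myc on the same array, minus its wild-type mean (y axis), for 6 members on the 2 IL15ko arrays (red) and the 3 wild-type arrays (blue). The wild-type arrays span less than 0.1 log2 units for Ccnd2, Ccnd3, Cdk4 and Cdkn2d, and more for Cdkn1b and Cdkn2c. Both IL15ko arrays lie below all wild-type arrays for both D cyclins and Cdkn1b, and above them for Cdkn2c.

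The genes with the profile nearest to each of these 2 members over the 5 arrays were sought among 9478 genes well above background on all arrays, by the root mean square difference of gene-centred log2 signals. For Myc they were Tmem177 (0.0157), Ccng1 (0.0176) and Atm (0.0202). For Ccnd3 they were H2-Q2 (0.033), Arap3 (0.0359) and Emid1 (0.0482), whose log2 differences were -0.83, -0.77 and -0.78 and which were not called.

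Of 11 tested partners, antagonists and relatives of Myc, 1 was called higher, 0 lower and 10 were not called, with a median log2 difference of 0.09. The called gene was Mycn, a paralogue of Myc that is active in early progenitors. It read -3.56 and -3.52 in IL15ko, against -5.29, -5.08 and -5.58 in wild-type, so that it rose 3.42-fold (log2 difference 1.77 ± 0.18, limma adjusted p = 0.0132). Its call was lost without IL15ko 1, without IL15ko 2 and without wild-type 1. The log2 difference was 0.08 for Max, the obligate partner of Myc (adjusted p = 0.718), and 1.16 ± 0.43 for Mxd3, an antagonist (adjusted p = 0.166). Of 25 textbook targets of Myc 2 were called higher, 0 lower and 23 were not called (median 0.28). Counts for this and the other lists stand beside 3.75% of all tested genes called higher and 3.58% called lower. Shmt2, a mitochondrial enzyme of one-carbon metabolism, rose 1.82-fold (adjusted p = 0.0244) and Pa2g4, a growth regulator, 1.85-fold (adjusted p = 0.0333). The number of targets called was 1 without IL15ko 1 and 0 without IL15ko 2, wild-type 1 or wild-type 2. Next by p were Srm, which makes spermidine (log2 difference 0.78, adjusted p = 0.0514), and Slc7a5, an amino acid transporter (0.95, adjusted p = 0.0918; -0.62 on its other probe), neither of them called.

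Of 13 tested partners of the D cyclins in G1, 3 were called higher, 0 lower and 10 were not called (median log2 difference 0.61). Cdk2, the kinase of cyclins E and A, read -2.09 and -2.57 in IL15ko, against -3.69, -3.62 and -3.62 in wild-type, and rose 2.49-fold (limma adjusted p = 0.0216). Rb1, the retinoblastoma gene, read -0.74 and -0.50 in IL15ko, against -1.57, -1.61 and -1.91 in wild-type, and rose 2.11-fold (adjusted p = 0.0288). Ccne1, which encodes cyclin E1, rose 1.98-fold (adjusted p = 0.0465), whereas 0.42 was the log2 difference of its other probe. Rb1 restrains the cycle, whereas Cdk2 and Ccne1 drive it. Cdkn2a, the INK4 and ARF locus gene, had a log2 difference of 1.797 ± 0.37 and was just short of the threshold (adjusted p = 0.0527). The number called was 0 without wild-type 1, 0 without wild-type 2, 1 without either IL15ko array and 4 without wild-type 3.

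Of 10 E2F family genes 1 was called higher and 0 lower (median log2 difference 0.45). This was Tfdp1, the partner of E2F factors in DNA binding, at -1.23 and -1.13 in IL15ko, against -2.30, -2.02 and -2.39 in wild-type (2.08-fold, limma adjusted p = 0.0273). The call was absent without IL15ko 1, IL15ko 2, wild-type 1 or wild-type 2, where 0 genes of the list passed, and 2 passed without wild-type 3. E2f1 had a log2 difference of 0.74 ± 0.18 (adjusted p = 0.074). Of 17 S-phase genes 5 were called higher, 0 lower and 12 were not called (median 0.65), the called ones being Mcm5, Cdc6, Rrm2, Mcm2 and Rrm1, with rises of 1.57-fold (Rrm1) to 3.01-fold (Rrm2). Without wild-type 1, wild-type 2 or IL15ko 1 the number called was 0, without IL15ko 2 it was 1 and without wild-type 3 it was 3. Of 14 mitotic genes 1 was called higher, 0 lower and 13 were not called, with the largest median of these lists, 1.00. The called gene was Cdk1, the mitotic kinase, whose other probe above background had a log2 difference of -1.002, so its direction is uncertain. The number of mitotic genes called was 2 without wild-type 3 and 0 without any other single array. Wild-type 3 was the lowest wild-type array for 14 of the 14 mitotic genes, and without it their median was 0.76.

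**Figure D5:**
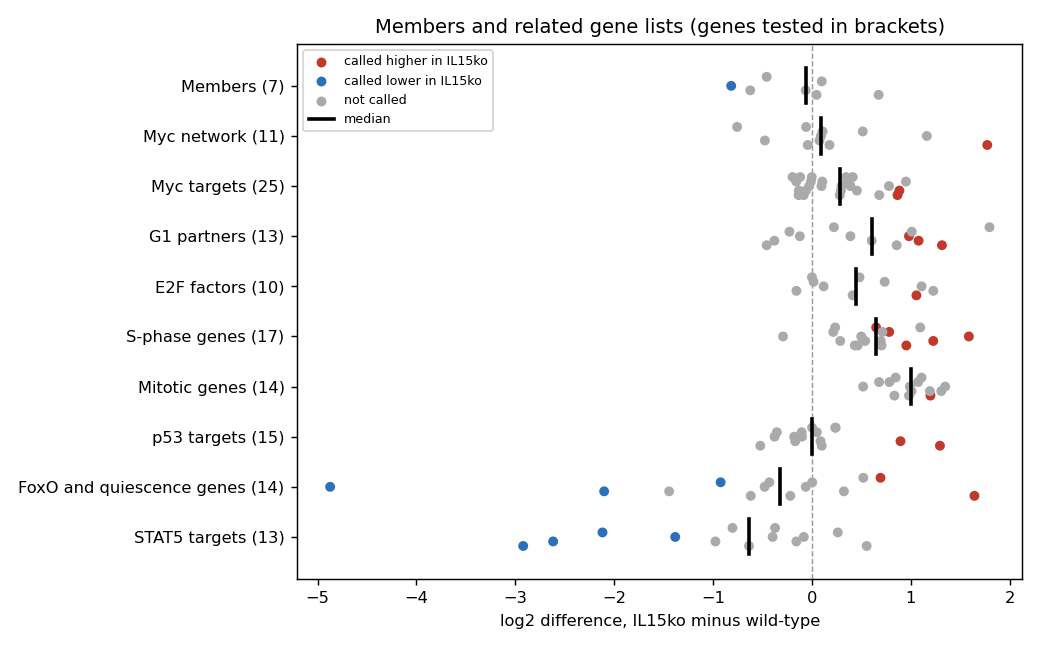
Log2 difference, IL15ko minus wild-type (x axis), of the 7 tested members and of the tested genes in 9 related lists; red and blue points were called higher and lower in IL15ko, grey points were not called, and black bars are medians. The members centre on -0.06, the S-phase and mitotic lists on 0.65 and 1.00, and the STAT5 list on -0.64.

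Of 15 p53 targets 2 were called higher, 0 lower and 13 were not called (median log2 difference 0.00). Perp, a membrane protein gene, rose 2.46-fold (limma adjusted p = 0.021) and Phlda3, an inhibitor of Akt, 1.86-fold (adjusted p = 0.0314). Of these targets 1 was called without wild-type 3 and 0 without any other single array. Mdm2, the main feedback gene of p53, had a log2 difference of 0.00 (adjusted p = 0.992). Of 14 FoxO and quiescence genes 2 were called higher, 3 lower and 9 were not called (median -0.32). Foxo1, whose protein activates Cdkn1b, rose 1.62-fold (adjusted p = 0.0476), while Txnip, an inhibitor of thioredoxin and glucose uptake, fell 4.29-fold (adjusted p = 0.0173). Ccng2, a cyclin gene of arrested cells, fell by 0.92 (adjusted p = 0.0446) but only 1 of the 2 IL15ko arrays had it well above background. Tsc22d3, a glucocorticoid-induced gene, was also called lower. Without wild-type 1 0 genes of this list were called, and 1 was higher and 0 lower without wild-type 2. Without IL15ko 2 the counts were 1 higher and 1 lower, and without IL15ko 1 or wild-type 3 they were 1 higher and 2 lower. Of 13 STAT5 targets 0 were called higher, 4 lower and 9 were not called (median -0.64). Cish, a feedback inhibitor of cytokine receptors, read -2.72 and -2.37 in IL15ko, against 0.28, 0.15 and -0.23 in wild-type, and fell 6.13-fold (adjusted p = 0.0088). Bcl2, a survival gene, fell 4.34-fold (adjusted p = 0.0173). The others called were Dusp6, a MAP kinase phosphatase (2.61-fold lower), and Socs2, a further cytokine feedback gene that was well above background in 1 IL15ko sample. Of the STAT5 targets 1 was called lower without wild-type 1, 2 without wild-type 2, and 3 to 5 without the remaining arrays.

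Markers of NKT subsets moved with the genotype and so with Ccnd3. Of 8 NKT1 markers 7 were called lower. Of these, Klrk1 was well above background on 0 IL15ko arrays and on 3 wild-type arrays, so it entered the test through wild-type alone. The summed signal of the 8 (in units of the array's 75th percentile) was 7.16 and 12.2 in IL15ko, against 40.0 to 42.0 in wild-type. Of 7 NKT2 markers 5 were called higher (summed signal 11.9 to 14.4 in IL15ko and 7.39 to 8.18 in wild-type), and of the 6 tested NKT17 markers 6 were (3.76 to 3.95 in IL15ko and 1.29 to 1.58 in wild-type). Of 7 NK-cell markers 4 were tested and 4 were called lower (2.95 to 3.99 in IL15ko and 16.9 to 18.1 in wild-type). The 4 are Klra8, Klre1, Fcer1g and Klra4, and genes of this kind are also expressed by NKT1 cells, while Ncr1 had no signal above background. Without wild-type 1 the calls were 2 for NKT1 and 0 for NKT2, NKT17 and NK markers, and without the other single arrays 4 to 7 NKT1 markers and 3 to 4 NK markers were called lower, and 2 to 3 NKT2 and 1 to 6 NKT17 markers higher. The part of subset makeup in the values of the cyclins and inhibitors was not tested.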

How the data were processed

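Per the labels, RNA of sorted thymic NKT cells was labelled with Cy3 and hybridised to 1 Agilent array per sample. Deposited values are linear intensities of spots, extracted with Agilent Feature Extraction 10.7.1.1 per the file headers; the processed signal is background-subtracted within the array and not scaled between arrays. The submitters' processing notes name limma without settings. The authors' deposited value table holds linear intensity close to spot median minus local background plus a constant per array. Its column medians were 24.4 and 15.7 in IL15ko and 25.2, 22.6 and 26.0 in wild-type.

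Control and outlier spots were left out (0 member spots were outliers), spots of a probe were averaged, and log2 values were taken relative to each array's 75th percentile (taken over 18517 probes that every array showed well above background). RefSeq accessions (GRCm38.p6) named 26425 probes with 1 symbol. The brightest probe stood for a gene, and genes that at least 2 arrays showed well above background entered limma 3.58.1 (lmFit, eBayes; R 4.3.3) with genotype as the one term. Residual degrees of freedom were 3 and prior ones 2.28, and the model was tested on simulated data. The smallest two-sided p of an exact permutation test here is 0.1, so none was used. The number of arrays limits the precision. Members, lists, motifs and alternatives were chosen with earlier results of these data known. Named genes were all members, up to 4 per list by smallest p, those needed to describe a count, and, chosen after their values were seen, Max, Mdm2, Cdkn2a, E2f1 and the Xist and Eif2s3y genes. The scanner files used here have no mean signal, so normexp ran on the median signal. One called gene of the FoxO and quiescence list is not reported here by name.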

Additional observations from a re-analysis of the deposited data

How the results depend on the processing

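Members kept their direction and side of the threshold in 98 of 118 comparisons with the main setting (17 other processing choices, of which scaling to Myc was chosen after seeing the data). Ccnd3 lost its call in 14 and Ccnd2 gained one in 1. Leaving out 1 array gave log2 differences of -0.011 to 0.148 for Myc, -0.12 to 0.321 for Cdk4 and -0.113 to 0.008 for Cdkn2d. Myc had log2 differences of -0.003 with wild-type 1 and 2 averaged and -0.011 without wild-type 1, Cdk4 one of -0.12 without IL15ko 1, and Cdkn2d one of 0.008 both with the replicate block and without wild-type 3. The number of members called lower was 1 in the main setting, 2 with a trended, robust prior, and 0 with the 75th percentile over all probes, median centring, quantile normalization, normexp, no filter on dim probes, the mean over probes, the replicate block, wild-type 1 and 2 averaged or scaling to Myc, where limma gave 2 to 4 members an unadjusted p under 0.05. It was 0 to 0 over the 5 settings that leave out an array. Member probes called were 0 in the main setting and 3 with the trended, robust prior.

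Over all genes 450 were called higher and 429 lower. The counts were 0 and 1 with normexp (1284 and 675 at an unadjusted limma p under 0.05) and 0 and 5 with no filter (1683 and 1068 unadjusted). They were 711 and 479 with genes above background on all arrays, and 821 and 696 with the trended, robust prior. The replicate block gave 149 and 249, and averaging wild-type 1 and 2 gave 74 and 94. Scaling to Myc gave 130 and 237 (35.4% higher, against 51.2% in the main setting). Leaving out 1 array gave 6 to 423 higher and 27 to 488 lower. Where 1 IL15ko array is left, it is assumed to vary like the wild-type arrays. Normexp and no filter shifted the median of all genes to 0.216 and 0.243, against 0.015. Normexp adds an offset that compresses dim probes, and no filter tests more genes. What moved the medians and the counts in these settings was not tested. Same-numbered arrays share only a number, and the block is given for that reason only here. Their deviations from the group mean correlated at -0.143 for number 1 and 0.319 for number 2. The 2 IL15ko arrays deviate by equal and opposite amounts, so these correlations cannot show whether the numbers pair arrays. In the 9 related pathway lists 0 genes were called with normexp or with no filter, while their medians kept their sign over the 17 choices except for p53 targets; relative to all genes, that of the Myc network reached -0.134. Members below background on all arrays (Ccnd1, Cdk6 and Cdkn1a) cannot be compared.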
